A study of Mus musculus with 15 samples.

Results

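Of the 57010 genes in the deposited tables, 7 were taken by name as genes of the mesothelium: Msln, Upk3b, Upk1b, Gpm6a, Lrrn4, Bnc1 and Wt1. All 7 passed the filter on low counts, which left 17879 genes. The members were chosen by their log2 fold changes between silica and control libraries, which had been seen, so the comparisons of silica with control and of silica_DMSO with silica are given as descriptions without a test. The 15 RNA-seq libraries came from lungs of C57BL/J mice. The control group (n = 4 libraries) was given physiological saline, the DMSO group (n = 4) dimethyl sulfoxide, and the silica group (n = 3) a silica suspension dropped into the nose. The silica_DMSO group (n = 4) had the same nasal silica and DMSO solution on the second day. Tissue was taken after 30 days, and the labels give no age, sex, dose or genetic change for any group. Whether libraries come from different animals is not said either, and p-values then cover only the spread among these libraries, which may be technical.

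The mesothelium is the single layer of flat cells that covers the lung and lines the chest wall, where it secretes a lubricating fluid. Its cells are epithelial in form but come from mesoderm, and they carry surface proteins that few other lung cells make. In a piece of lung they lie only at the outer surface, so the amount of pleura in a sample bears on their RNA. In such bulk samples fewer mesothelial cells and less RNA per cell cannot be told apart.

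Promoters are printed because the levels of 6 of the 7 members, all but Msln, moved most closely together across the 12 libraries without thymus RNA. The RefSeq promoter table (build GRCm38.p6) matched 4 of the 7 members with 5 promoters, and the 250 bases before the start are shown 5′ to 3′ for 4 of these. Msln, Wt1 and Upk1b had no entry. Capitals mark CATTCC, the core of the element read by TEAD factors, or its reverse complement (in Lrrn4 and Gpm6a), and in Bnc1 an Sp/KLF box, GGGCGGGG.
Lrrn4, chr2:132880863-132881112, minus strand: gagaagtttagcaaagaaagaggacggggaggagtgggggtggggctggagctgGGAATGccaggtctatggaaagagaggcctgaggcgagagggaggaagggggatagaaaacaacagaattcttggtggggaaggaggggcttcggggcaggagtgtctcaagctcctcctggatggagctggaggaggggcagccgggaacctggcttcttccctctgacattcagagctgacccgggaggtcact
Upk3b, chr5:136038246-136038495, plus strand: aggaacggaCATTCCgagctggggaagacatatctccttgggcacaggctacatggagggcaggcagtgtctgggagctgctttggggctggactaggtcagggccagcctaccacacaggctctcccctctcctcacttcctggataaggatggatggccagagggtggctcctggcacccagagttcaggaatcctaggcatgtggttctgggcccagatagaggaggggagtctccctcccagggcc
Gpm6a, chr8:54779184-54779433, plus strand: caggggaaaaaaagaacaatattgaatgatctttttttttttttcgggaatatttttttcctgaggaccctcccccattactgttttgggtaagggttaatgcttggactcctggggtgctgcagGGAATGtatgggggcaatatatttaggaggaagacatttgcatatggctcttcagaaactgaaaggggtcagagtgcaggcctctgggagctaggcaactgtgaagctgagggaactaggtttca
Bnc1, chr7:81992300-81992549, minus strand: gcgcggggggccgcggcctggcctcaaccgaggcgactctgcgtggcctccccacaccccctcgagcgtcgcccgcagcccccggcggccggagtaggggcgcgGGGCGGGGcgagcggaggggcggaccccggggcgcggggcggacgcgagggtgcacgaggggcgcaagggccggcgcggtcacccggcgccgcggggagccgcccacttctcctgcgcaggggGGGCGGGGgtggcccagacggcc
CATTCC was found in 3 of the 5 member promoters, against 12.6% of 32851 promoters of the same length searched on both strands. It began 241 bases before the start in Upk3b, 196 in Lrrn4 and 125 in Gpm6a. GGGCGGGG stood in Bnc1 at 146 and 23 bases before the start and in 16.1% of all promoters. The WT1-type motifs GCGGGGGCG and GCGTGGGAG were in 0 of the 5, and in 2.57% and 0.405% of all promoters. The sequences of the first WT1-type motif and the Sp/KLF box can share bases. The second Gpm6a promoter held none of the 4 motifs. GC content ran from 83.6% in Bnc1 to 44.4% in the Gpm6a promoter shown. A match of letters is a description and not evidence of a bound site.

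Libraries totalled 17434649 to 20829960 estimated counts. DMSO 7, silica_DMSO 4 and silica_DMSO 6 held thymus RNA, with summed thymocyte genes at 2351.57 to 3006.06 TPM against at most 15.43 TPM in the other 12 libraries, so each comparison of the members is given with and without them. Libraries also differed in the share of counts in genes over 3000 bases long. In 5 of the 12 (control 1, DMSO 1, DMSO 4, silica 7 and silica_DMSO 5) it was 11.5% to 24.2%, and in the other 7 it was 34.0% to 44.9%. The labels' extraction text speaks of retinas under a lung tissue label. Sftpc, the surfactant gene of alveolar type 2 cells, was at 14747.63 TPM or more in the 12 libraries. Calb2, a mesothelial marker in many tissues, was at 0 to 0.06 TPM in those 12.

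In the control libraries the members formed an abundant and a scarce group. TPM, transcript abundance scaled by gene length and library, allows comparison between genes and averaged 32.8 ± 9.03 for Msln (SD, n = 4), 24.7 ± 11.1 for Gpm6a, 20.2 ± 5.53 for Upk1b and 17.7 ± 8.35 for Upk3b. Their ranges overlapped, so their order is not settled beyond the spread. Lrrn4 averaged 3.53 ± 3.05 TPM, Wt1 0.835 ± 0.562 TPM and Bnc1 0.782 ± 0.440 TPM. The ranges of Wt1 and Bnc1 also overlapped. Summed over the 7, the control level was 101 ± 27.8 TPM.

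All 7 members were lower on average in silica than in control libraries, and for most of them the libraries of the groups did not overlap. The sum was 31.8 ± 23.9 TPM in silica (n = 3). On CPM (counts scaled to library size) adjusted by the trimmed mean of M values (normalised CPM), 6 of 7 members had every silica library below every control library, where 4.67% of the genes tested did. In TPM this held for 5 of 7, against 3.07%, with Msln and Gpm6a overlapping. Msln was the exception in normalised CPM. These shares belong to the contrast that drew attention to the members and are given for orientation. In that contrast 0 of 17879 genes (0%) passed edgeR's quasi-likelihood test after adjustment, and 522 (2.92%) had an unadjusted p under 0.05. Without the 3 libraries with thymus RNA it called 2 of 17630 genes (0.0113%).

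Of Upk3b, Upk1b and Msln, Upk3b had the lowest log2 fold change. Upk3b, a uroplakin that in the bladder forms plaques of the apical membrane, stood at 12.37, 9.27, 27.22 and 22.07 TPM in control 1, 2, 4 and 7. It was at 2.07, 0.13 and 1.43 TPM in silica 1, 2 and 7. No silica library reached the lowest control, and the log2 fold change was -3.76 ± 1.65 (SE), or -3.79 ± 1.21 without the 3 libraries with thymus RNA. Upk1b, a tetraspanin uroplakin, had 13.44, 21.38, 26.77 and 19.04 TPM in control and 11.03, 7.73 and 4.86 TPM in silica. Its libraries did not overlap either, and in normalised CPM the groups were tight, at 30.4 to 39.7 in control and 12.6 to 13.4 in silica. The log2 fold change of Upk1b was -1.36 ± 1.09. Msln encodes mesothelin, a surface protein that is held by a lipid anchor. It had 40.84, 21.33, 39.11 and 29.88 TPM in control and 32.46, 2.18 and 5.55 TPM in silica. Silica 1 lay inside the control range and the other silica libraries below it, and the log2 fold change was -1.72 ± 1.07, or -2.71 without silica 1 and -1.21 without control 1.

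The other membrane proteins were lower as well. Gpm6a, a proteolipid-family glycoprotein best known from neurons, had 8.60, 26.00, 33.22 and 30.97 TPM in control and 13.06, 8.85 and 4.73 TPM in silica. Control 1 sat within the silica range in TPM, but in normalised CPM its 46.2 was above the highest silica value of 30.0. The log2 fold change of Gpm6a was -1.41 ± 1.09. Lrrn4, a leucine-rich repeat membrane protein, had 1.13, 1.89, 7.93 and 3.17 TPM in control and 0.37, 0.03 and 0.19 TPM in silica. Its log2 fold change of -3.96 ± 1.43 was the lowest of the 7, and no silica library reached the lowest control.

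The transcription factors were scarce in control libraries and lower still with silica. Bnc1, a zinc-finger factor of basal keratinocytes, germ cells and mesothelium, had 0.55, 0.44, 1.42 and 0.72 TPM in control and 0.16, 0 and 0.06 TPM in silica. Its log2 fold change was -3.43 ± 1.09. Wt1, the Wilms tumour factor and a classical mesothelial marker, had 0.33, 0.40, 1.48 and 1.13 TPM in control and 0.23, 0 and 0.13 TPM in silica, a log2 fold change of -2.47 ± 1.40. Without the 3 libraries with thymus RNA, the values of the other 6 members were -3.99 for Lrrn4, -3.46 for Bnc1, -2.50 for Wt1, -1.76 for Msln, -1.44 for Gpm6a and -1.38 for Upk1b. The libraries of Bnc1 and of Wt1 did not overlap between the groups. In silica 2 both had 0 counts, which allows up to 0.157 normalised CPM for counting error alone. The kit is not stated to keep strand, so reads of Wt1 and its antisense gene Wt1os cannot be told apart, but Wt1os was at most 0.09 TPM in any library.

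**Figure D1:**
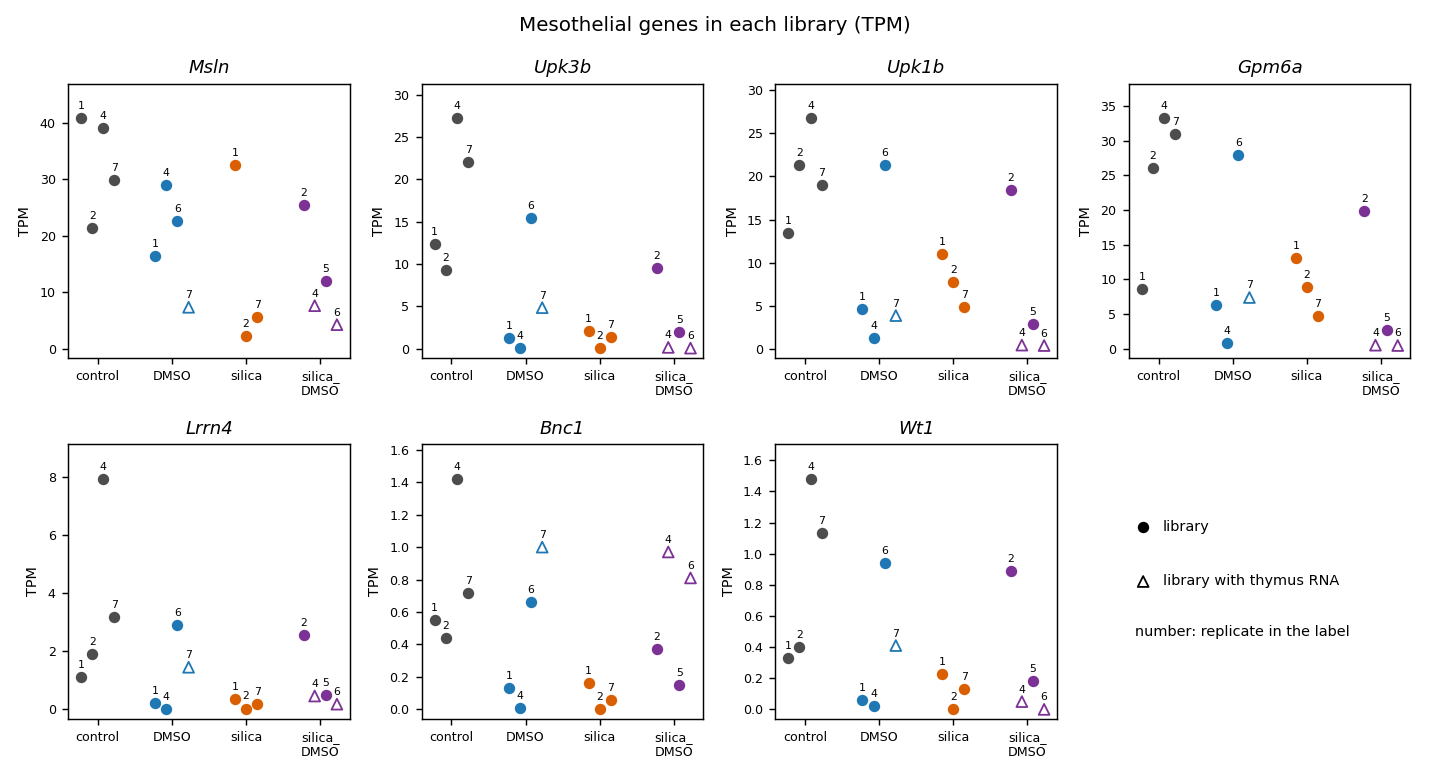
TPM of each of the 7 mesothelial genes in each of the 15 libraries by group on a linear axis, numbered by replicate, with open triangles for the 3 libraries that hold thymus RNA. The silica libraries lie below all control libraries for Upk3b, Upk1b, Lrrn4, Bnc1 and Wt1, while Msln and Gpm6a overlap.

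Set against control libraries of a like long-gene share, the same silica libraries had these values, which describe the contrast that the members were chosen by. Among libraries with a high share, silica 1 and 2 had 4.62% to 57.5% of the TPM of control 2, 4 and 7, with a median over the members of 11.5%. With a low share, silica 7 had 10.9% to 55.0% of control 1, with a median of 16.8%. The second of these sets 1 library against 1.

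Giving DMSO after silica went with higher mean member levels in the libraries without thymus RNA, but the size hung on the scale. In TPM the higher mean came from silica_DMSO 2 alone for Msln, Upk1b and Gpm6a, as silica_DMSO 5 was below the silica mean. Silica_DMSO 2 and silica_DMSO 5 had 25.43 and 12.06 TPM of Msln, 9.49 and 1.93 of Upk3b, 18.43 and 2.88 of Upk1b, and 19.86 and 2.64 of Gpm6a. Silica_DMSO 2 was above every silica library for Upk3b, Upk1b and Gpm6a, whereas silica_DMSO 5 was below every silica library for Upk1b and Gpm6a. Marker genes of alveolar type 1 cells summed to 2344 and 362 TPM in silica_DMSO 2 and 5, against 1248 to 1776 TPM in silica. Cardiac muscle genes summed to 168 and 55.7 TPM, against 48.1 to 126 TPM. For the scarce genes the values in the same order were 2.55 and 0.51 TPM of Lrrn4, 0.37 and 0.15 of Bnc1, and 0.89 and 0.18 of Wt1. Lrrn4 was the 1 member in which both libraries exceeded every silica library in TPM, against 0.72% of genes. In normalised CPM 6 of 7 members did so, against 2.83%. Silica_DMSO 5 had the smallest scaling factor, 0.478, and one of the low long-gene shares. Whether that sets the gap between the scales was not tested.

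The log2 fold changes of silica_DMSO against silica over all 15 libraries were 0.93 ± 1.04 (SE) for Msln, 1.69 ± 1.5 for Upk3b, 1.48 ± 1.37 for Wt1, 2.62 ± 1.35 for Lrrn4, 3.06 ± 1.07 for Bnc1, -0.065 ± 1.05 for Upk1b and -0.24 ± 1.04 for Gpm6a. Msln was at -0.12 without silica_DMSO 5 and at 1.92 without silica 1. Without the 3 libraries with thymus RNA they were 1.79, 2.68, 2.46, 3.48, 2.82, 0.91 and 0.73, with a median of 2.46 in place of 1.48. The medians over all genes were 0.051 and -0.016. At matched share of long genes, silica_DMSO 2 had 147% to 1275% of the TPM of silica 1 and 2. Silica_DMSO 5 had 55.8% to 268% of silica 7, with 2 of 7 members below 100%, and 159% to 783% in normalised CPM. With all 15 libraries, Bnc1 was the 1 member whose groups did not overlap, against 0.783% of genes in normalised CPM. In TPM it was 0 members, against 0.313%. The Bnc1 value over all 15 libraries includes silica_DMSO 4 and 6, which held thymus RNA. Bnc1 was at 0.97 and 0.81 TPM there, against 0.37 and 0.15 TPM in silica_DMSO 2 and 5.

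DMSO alone was tested against control, with the control libraries that the silica comparison also used. No member was called, and DMSO libraries spread from control levels to near 0. Upk3b stood at 1.25, 0.06, 15.48 and 4.84 TPM in DMSO 1, 4, 6 and 7, Gpm6a at 6.24, 0.88, 27.98 and 7.37, and Upk1b at 4.63, 1.18, 21.38 and 3.84. DMSO 6 lay within the control range for all 3, and DMSO 1, 4 and 7 were below every control library for all 3, with DMSO 4 the lowest. Alveolar type 1 genes had a like split, with sums of 854, 298, 2391 and 624 TPM against 2089 to 2715 TPM in control. Adipocyte genes did not, at 49.6, 50.6, 71.5 and 341 TPM against 43.3 to 66.0 TPM. The part of other tissue in this spread was not tested. Lrrn4 had 0.22, 0, 2.90 and 1.45 TPM, Bnc1 0.13, 0.01, 0.66 and 1.00, and Wt1 0.06, 0.02, 0.94 and 0.41. Lrrn4 had no count in DMSO 4, which allows up to 0.249 normalised CPM. Msln differed from these, at 16.38, 29.08, 22.66 and 7.33 TPM, with DMSO 4 the highest.

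By edgeR's quasi-likelihood test with Benjamini-Hochberg adjustment over all genes, the log2 fold changes of DMSO against control were -1.78 ± 1.35 for Upk3b (adjusted p = 0.68), -1.56 ± 1.14 for Lrrn4 (0.678), -1.19 ± 0.98 for Upk1b (0.694), -1.08 ± 1.18 for Wt1 (0.75), -1.02 ± 0.98 for Gpm6a (0.721), -0.94 ± 0.87 for Bnc1 (0.715) and 0.065 ± 0.94 for Msln (0.985). In normalised CPM the groups overlapped for all 7 members, where 2.09% of genes were lower and 2.07% higher without overlap. Over all 17879 genes edgeR called 0 (0%), DESeq2 63 and limma-trend 0, and in edgeR 1275 (7.13%) had an unadjusted p below 0.05. Without the 3 libraries with thymus RNA the log2 fold changes were -1.63 ± 1.08 for Upk3b, -1.55 ± 1.12 for Lrrn4, -1.37 ± 0.96 for Bnc1, -1.06 ± 0.96 for Wt1, -0.90 ± 0.44 for Upk1b, -0.78 ± 0.56 for Gpm6a and 0.40 ± 0.74 for Msln. Their adjusted p by edgeR was 0.513 to 0.784. Without DMSO 6, the 15-library values moved to -3.19 for Upk3b, -2.71 for Lrrn4, -2.05 for Wt1, -2.01 for Upk1b and -1.88 for Gpm6a, none called. Within the high long-gene share, DMSO 6 alone had 67.0% to 95.5% of control TPM. With the low share, DMSO 1 and 4 had 5.30% to 55.7% of control 1, with a median of 12.7%.

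Silica_DMSO against DMSO repeats the silica contrast in libraries that the silica and control groups do not hold. No direction was shared by the members. The log2 fold changes were -0.85 ± 0.95 for Msln (adjusted p = 0.998 by edgeR), -0.63 ± 0.97 for Gpm6a (0.998), -0.29 ± 1.31 for Upk3b (0.999), -0.23 ± 0.97 for Upk1b (0.999), 0.091 ± 1.20 for Wt1 (1), 0.23 ± 1.12 for Lrrn4 (1) and 0.57 ± 0.87 for Bnc1 (0.998). Without the libraries with thymus RNA, 6 of 7 were above 0, from 0.076 for Gpm6a to 1.04 for Lrrn4, and Msln was at -0.38, each with an adjusted p of 1 by edgeR. Over all 17879 genes edgeR called 0 (0%), DESeq2 1 and limma-trend 0, and in edgeR 305 (1.71%) had an unadjusted p below 0.05. In normalised CPM the groups overlapped for all 7 members, where 0.364% of genes were lower and 0.218% higher without overlap.

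**Figure D2:**
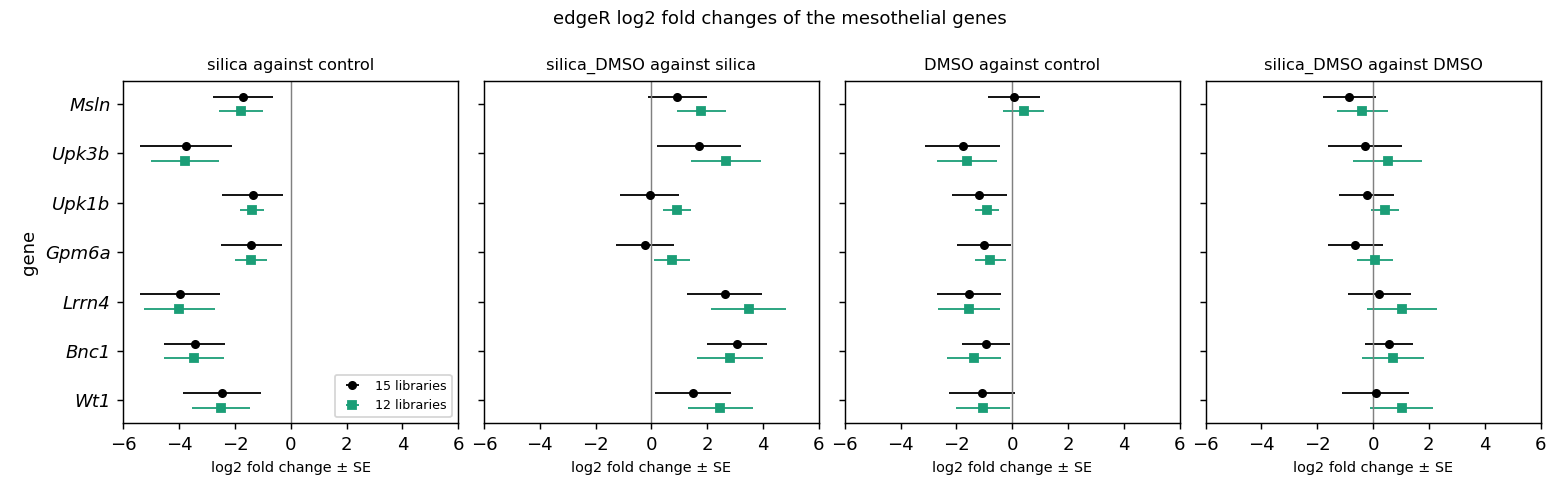
Log2 fold change with its standard error for each of the 7 genes in the 4 comparisons, fitted over all 15 libraries and over the 12 without thymus RNA. All 7 lie below 0 for silica against control, and for silica_DMSO against DMSO they lie on both sides of 0 in the fit of 15 libraries.

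Over the 12 libraries without thymus RNA, Msln followed the other 6 members less closely than they followed each other. Across the 12 libraries without thymus RNA, Pearson's r of log2 normalised CPM among those 6 was 0.718 to 0.978 over 15 pairs, with a median of 0.917. The 6 pairs with Msln gave -0.073 to 0.480, with a median of 0.315. The libraries share depth and scaling factors, so these r describe the pattern only. They include DMSO 4, and r without that library was not examined. DMSO 4 stood furthest apart, with 29.08 TPM of Msln beside 0.06 TPM of Upk3b, a ratio of 485. The ratio was 1.35 to 3.30 in controls, 1.46 in DMSO 6, 3.88 in silica 7, 15.7 in silica 1 and 16.8 in silica 2. Msln made up 93.1% of the members' summed TPM in DMSO 4 and 11.5% in silica 2, against 26.4% to 52.9% in controls. In silica 2 and silica 7 both Msln and Upk3b were below every control library, and in silica 1 only Upk3b was.

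**Figure D3:**
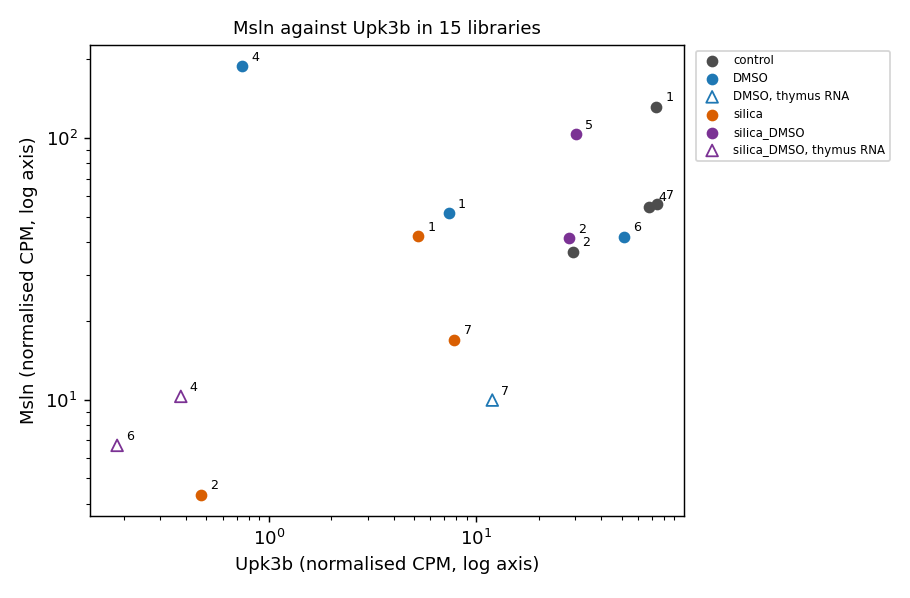
Normalised CPM of Msln against Upk3b in the 15 libraries, both axes logarithmic, coloured by group, with open triangles for libraries that hold thymus RNA. DMSO 4 lies apart at 188 normalised CPM of Msln and 0.747 of Upk3b.

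In the 3 libraries with thymus RNA, Bnc1 lay within the control range while Upk3b and Gpm6a lay below it. It was at 1.00, 0.97 and 0.81 TPM in DMSO 7, silica_DMSO 4 and silica_DMSO 6, whereas Upk3b was at 4.84, 0.15 and 0.06 TPM there and Gpm6a at 7.37, 0.50 and 0.45 TPM. Krt5, a keratin of basal squamous cells, was at 44.14, 221.50 and 111.64 TPM, and at most 0.63 TPM elsewhere. Foxn1, the thymic epithelial factor, was at 3.49, 9.74 and 5.56 TPM and at 0 in the other 12 libraries. Their part in the Bnc1 level was not tested.

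Of 22 other mesothelial genes, 18 had a negative log2 fold change for silica against control, with a median of -0.99 beside 0 over all genes, and 0 were called by edgeR in either direction. Summed, they were at 574 to 661 TPM in silica and 825 to 1420 TPM in control. The 6 of highest mean TPM over the 12 libraries without thymus RNA were Rarres2, Bcam, Igfbp6, Efemp1, Gpc3 and Anxa8. Igfbp5, an insulin-like growth factor binding protein, came next and was above Anxa8 in every control library. Its log2 fold change was -1.03 ± 0.64. Igfbp6, an inhibitor of insulin-like growth factors, had 222.91, 151.70, 206.17 and 219.55 TPM in control and 37.79, 111.94 and 91.65 TPM in silica, without overlap. Gpc3, a heparan sulfate proteoglycan, had a log2 fold change of -1.49 ± 1.20 and Efemp1, a fibulin, -0.85 ± 0.92. Rarres2, the chemokine chemerin, was at -0.80 ± 1.10 and Bcam, a laminin receptor, at -0.49 ± 0.85. Anxa8, an annexin, was at 0.76 ± 0.95. DMSO against control gave the same count, 18 of 22, with a median of -0.96 and 0 called.

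Among 10 family members and partners of the 7 genes, 7 were tested, with a median of -0.49 for silica against control and 0 called. Gpm6b, the paralog of Gpm6a, was the most abundant and had 7.97, 19.61, 19.02 and 15.89 TPM in control and 17.66, 11.09 and 4.58 TPM in silica, with overlap. The simple epithelial keratins, made by mesothelium and by other lung epithelium, had a median of -0.11.

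Among markers of other cells, the sums of alveolar type 1 and cardiac muscle genes were also lower in silica than in control. The 7 alveolar type 1 genes summed to 1248 to 1776 TPM in silica and 2089 to 2715 TPM in control, with a median of -0.71 on the log2 scale. Cardiac muscle genes summed to 48.1 to 126 TPM in silica and 132 to 461 TPM in control, with a median of -1.56. Neither sum overlapped between the groups, and 0 genes of either list were called. Fibroblast genes had a median of 0.27, adventitial fibroblast genes -0.028, adipocyte genes 0.058 and alveolar type 2 genes -0.25. Skeletal muscle had 0.35, squamous epithelium 0.31, neuron -0.33, podocyte -0.29, thymocyte 0.31 and thymic epithelium 0.13. The part of other tissue in the members' difference was not tested.

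The genes whose pattern was most like the mean of the members over the 12 libraries were named by r. Sfrp2, a secreted Wnt antagonist, had r = 0.966 and a Spearman rank correlation of 0.979, and Nxph1, a neurexin ligand, 0.955 and 0.944. Muc16, the mucin that binds mesothelin, had 0.953 and 0.944, and Crb2, a polarity protein, 0.930 and 0.909. Nxph1 and Crb2 were scarce, with means of 0.124 and 0.0875 TPM and 0 TPM in DMSO 4 and silica 2. Their r therefore rests on values near the floor. Cldn15, a claudin, had 0.925 and 0.881, Chst4, a sulfotransferase, 0.919 and 0.951, and Trpc6, a cation channel, 0.907 and 0.951. H2-Q1, a class I histocompatibility gene with near-identical copies whose counts are uncertain, had 0.898 and 0.832, Pkhd1l1 0.893 and 0.930, and Gpc3 0.891 and 0.874. Muc16 stood at 6.91, 2.41, 6.63 and 2.77 TPM in control and 0.55, 0.07 and 0.68 TPM in silica. The libraries of silica and control did not overlap for Muc16, whose log2 fold change was -3.63 ± 1.49. In normalised CPM 4.67% of the genes tested were lower in silica without overlap. The mean of the members was itself lower in every silica library than in every control library. A gene named by its likeness to that mean is therefore no separate result on silica.

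**Figure D4:**
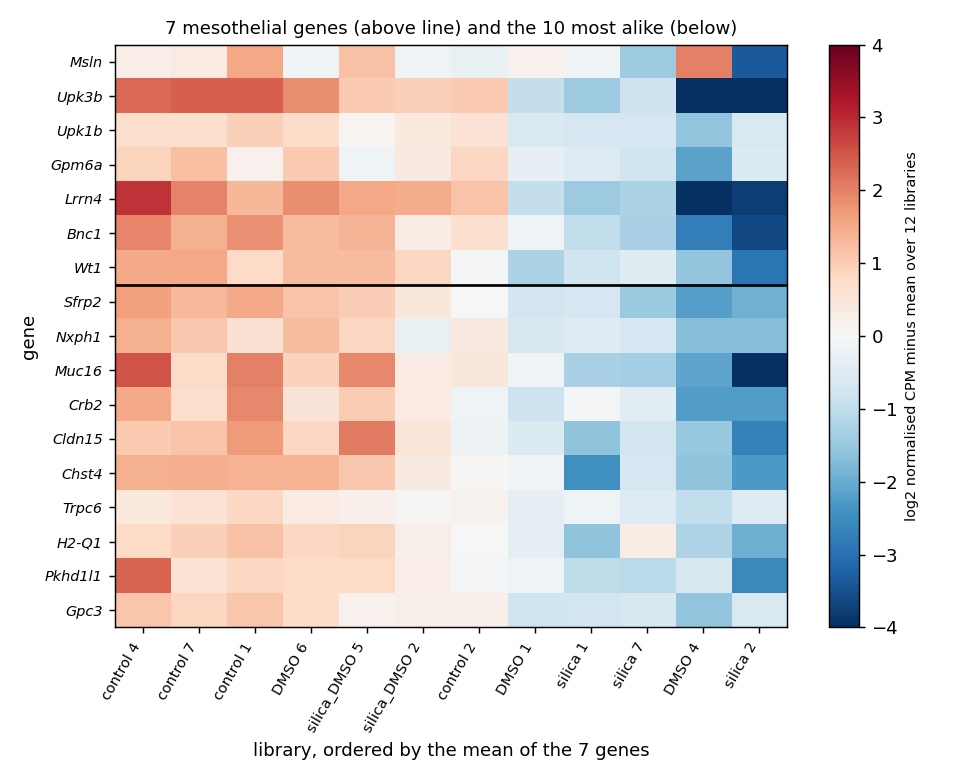
Log2 normalised CPM of the 7 members and the 10 genes most like their mean, each centred on its own mean, over the 12 libraries without thymus RNA, with values beyond -4 and 4 drawn in the end colours. Control 1, 4 and 7 and DMSO 6 are above the mean in most rows and silica 2 is below it in all, while Msln is high in DMSO 4.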

How the data were processed

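Lung RNA was sequenced in 15 libraries, grouped by the treatment in the labels and numbered by their titles. The deposited count table holds expected counts made by the authors, beside the length of each gene, and the deposited TPM table holds the authors' TPM. Bowtie 0.12.2 and build mm8 are listed in the submitters' processing notes. For the counting step, the program was not given in the sources used here. Left out were 8 columns of the authors' group means. Expected counts were rounded, filtered with filterByExpr (smallest count 10, smallest total 15), scaled by TMM and fitted as 4 group means with edgeR's quasi-likelihood F test, adjusted over all genes by Benjamini and Hochberg at 0.05. Log2 CPM used a prior count of 2 and limma-trend log2(TPM + 1). Precision is limited by counting error and by 3 or 4 libraries a group.

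The 7 members, the gene lists and this comparison plan were chosen with earlier results of these data known. Named were the members, the 10 genes most like their mean by Pearson's r, and up to 6 abundant genes of the mesothelial and family lists. Predicted genes, pseudogenes and variable segments were left out of the likeness. For other lists the plan was to name the most abundant gene or any absent marker, but most of those lists have no gene named here. Gpm6b, Igfbp5, Krt5, Foxn1 and Calb2 were also named after their values were seen. Not all genes looked up are given here. Alternatives were DESeq2, DESeq2 size factors, no filter, the replicate block, limma-trend, leaving out each library, fits without the libraries with thymus RNA, alone or with a gene length offset, and, chosen after seeing the data, also without DMSO 4. The edgeR test was also tried on simulated data with a smaller spread than these libraries have, which does not measure its power here. R 4.3.3, edgeR 4.0.16, limma 3.58.1, DESeq2 1.42.0, data.table (version 1.17.8), Python 3.11.15 and matplotlib 3.10.9 were used.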

Additional observations from a re-analysis of the deposited data

Results flagged for a closer look

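In groups of 4 libraries, 4 of the 21 sets of member values examined held a library far from the other 3. Chance gives such a distance in about 1 in 20 independent sets of normally spread values. These sets share libraries and most members moved together, so the count of 4 cannot be set against that rate. Silica_DMSO 2 stood far above its group for Lrrn4 (2.55 TPM), Upk1b (18.43 TPM) and Gpm6a (19.86 TPM). DMSO 6 stood far above its group for Upk1b (21.38 TPM). Both groups include libraries with thymus RNA, and silica_DMSO 2 and DMSO 6 were the libraries of their groups that had neither thymus RNA nor a low share of counts in long genes. The part of either in the distance was not tested.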

How the results depend on the processing

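For silica against control all 7 members were lower in every alternative run, from -4.61 to -0.67 on the log2 scale, a direction by which they were chosen. DESeq2 called 63 genes for DMSO against control and 1 for silica_DMSO against DMSO where edgeR called 0. With the replicate block, edgeR called 0 in both; the correlation of same-numbered libraries' deviations was -0.49 to 0.24, so the numbers were not taken as pairs, and the block turned Wt1 in silica_DMSO against DMSO to -0.37. The smallest adjusted p of any member in any alternative was 0.374 for DMSO against control and 0.61 for silica_DMSO against DMSO. For DMSO against control, Msln turned to -0.57 without the libraries with thymus RNA and DMSO 4, an alternative chosen after seeing the data, and to -0.87 with limma-trend, and lay between -1.01 (without DMSO 4) and 0.57 on leaving out single libraries. The other 6 members stayed below 0 there, with Upk3b at -3.19 to -1.38, Lrrn4 -2.71 to -1.09, Wt1 -2.05 to -0.77, Upk1b -2.01 to -0.89, Gpm6a -1.88 to -0.70 and Bnc1 -1.37 to -0.55, the lowest without DMSO 6 except for Bnc1 (without DMSO 7). For silica_DMSO against DMSO, leaving out the libraries with thymus RNA turned Upk3b to 0.52, Upk1b to 0.42 and Gpm6a to 0.076, and adding the length offset gave 0.77, 0.44 and 0.20. Also leaving out DMSO 4 turned Msln to 0.63 and Upk1b to 0.062. Limma-trend turned Wt1 to -0.084 and Lrrn4 to -0.084. Single libraries left out gave -1.91 to 0.23 for Msln, -0.91 to 1.13 for Upk3b, -0.63 to 1.06 for Wt1, -0.25 to 1.37 for Lrrn4, -0.93 to 0.59 for Upk1b and -1.45 to 0.24 for Gpm6a. For silica_DMSO against silica, single libraries left out gave -0.12 to 1.92 for Msln, -0.76 to 0.34 for Upk1b and -1.06 to 0.16 for Gpm6a, and the other 4 stayed above 0. The cause of these turns was not tested. Counts of 0 to 4 for Wt1 and Bnc1 in some libraries limit what can be seen of these genes.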
